A study of Mus musculus with 9 samples.

Results

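The 8 genes described here, Pax1, Pax9, Nkx3-2, Sox9, Col2a1, Meox1, Meox2 and Acan, belong to the sclerotome and the first steps of cartilage formation. They were taken by gene symbol from the 27198 rows of a full Cuffdiff table that compares 2 genotypes. Tissue of the posterior second heart field (pSHF), the mesoderm that supplies cells to the atria and their septum, was microdissected from mouse embryos of mixed background at stage E10.5. PolyA RNA was sequenced from 5 Shh KO and 4 Shh WT libraries, and no other allele or treatment is named for either genotype. How the Shh allele was made, and whether a library held 1 embryo or several, are not stated in the labels. They do not say that libraries came from separate litters either, so p-values measure the spread between these libraries, which may be technical.

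The sclerotome is the ventral part of the somite, which gives rise to vertebrae and ribs. Sonic hedgehog, the ligand that Shh encodes, is secreted by the notochord and the floor plate and is known to induce Pax1, Pax9 and Nkx3-2 in the sclerotome. Sox9 then directs cartilage formation and activates the matrix genes Col2a1 and Acan. Several of these genes are also known outside the somite. Pax1 and Pax9 mark pharyngeal pouch endoderm, and Sox9 is used by neural crest, endocardial cushions and the tips of lung epithelium.

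None of the 7 genes that Cuffdiff tested was called changed in Shh KO tissue, and the other, Acan, was not tested. In the authors' deposited table, Cuffdiff called 0 of the 7 tested genes lower and 0 higher at a q under 0.05. Over all 13048 tested rows with a gene name and a numeric fold change, 0.383% were called lower and 1.56% higher. At an unadjusted Cuffdiff p under 0.05, 2 of the 7 stood below 0 (Pax9 and Meox2) and 0 above, where 1.68% of all tested rows stood below and 5.83% above. Of the 7, 6 had a negative fold change, against 45.1% of all tested rows, and their median log2 fold change (Shh KO over Shh WT) was −0.30, against 0.02 over all tested rows. In bulk tissue, fewer cells of a type and less RNA per cell cannot be told apart.

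Expression levels could not be given for any of the 8. The authors' second, shorter table holds 1 pooled FPKM value per genotype (fragments scaled to transcript length and library size), but it lists 253 called genes, and 0 of these 8 is among them. Each gene therefore has a fold change, a p-value and a q-value, with no value per library. The RNA came from bulk tissue, and the identity of the cells behind these transcripts was not tested. For Acan the full table gives a statistic of 0 and a p of 1, the mark of an untested row.

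The set holds paralogs, so it was checked whether reads of 50 bp could be shared between its genes. Pax1 and Pax9 are shown as an example. The stretches below run 5′ to 3′ and surround the longest run of identical bases in the coding sequence, and capitals mark the bases that are the same in both genes. Both encode paired-box factors, and the 116 bases shown lie in the paired box.
Pax1: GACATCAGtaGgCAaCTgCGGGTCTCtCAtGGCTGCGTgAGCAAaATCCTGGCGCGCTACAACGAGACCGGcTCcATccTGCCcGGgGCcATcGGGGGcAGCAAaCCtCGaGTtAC
Pax9: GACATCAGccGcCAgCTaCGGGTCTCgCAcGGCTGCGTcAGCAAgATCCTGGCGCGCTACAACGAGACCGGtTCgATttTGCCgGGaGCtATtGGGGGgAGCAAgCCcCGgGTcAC
Of these bases, 94 are identical (81.0%), in a longest run of 26. The Pax1 stretch is on chr2:147365849-147365964 in exon 2 of 5, and the Pax9 stretch on chr12:56696690-56696805 in exon 3 of 5, both on the plus strand of GRCm38 (mm10).

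No identical window of 50 bases was shared by any 2 of the 8 genes over all their GENCODE M21 transcripts. Only exact matches were counted, so reads aligned with mismatches were not covered. For Nkx3-2, Sox9, Col2a1, Meox1, Meox2 and Acan, 0 windows occurred in a transcript of any other gene. Pax1 shared 3.32% of its windows and Pax9 3.50% of its windows with transcripts of other genes outside the set. The deposited rows of the 8 genes overlap no row that has a different interval. GENCODE, however, ends Pax9 at 56712822, past the start of the deposited row of its neighbour Slc25a21 at 56712634. Rows with exactly the same interval as a member were not counted. Within the deposited Meox1 interval GENCODE places an antisense gene, Gm11551, and within that of Meox2 a noncoding gene on the same strand, Gm48617. Neither shares a window of 50 bases with its host on either strand. Strand settings of Cuffdiff are not known here.

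Pax9 had the most negative fold change of the 8. Pax9 (chr12:56695639-56711230) is a paired-box factor of sclerotome and pharyngeal endoderm. Its log2 fold change was −1.28 in the authors' deposited table, so the Shh KO level was 41.2% of the Shh WT level (Cuffdiff p = 0.00265, q = 0.113). The 95% interval that this p implies under a normal approximation ran from −2.11 to −0.45. The authors' deposited statistic implies a wider one, from −2.79 to 0.23, which includes 0. Only 66 of the 13048 tested rows had a more negative fold change, and 29 of these were called. The largest p among called rows was 0.00075, so Pax9 missed the threshold.

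Pax1 (chr2:147364994-147375048), the closest relative of Pax9, stood at −0.37 in log2 units in the authors' deposited table (Cuffdiff p = 0.244, q = 1.00). Its interval of −1.004 to 0.26 from the p includes 0 and overlaps that of Pax9. No test of the difference between the 2 genes was run. The lower end of its interval is 0.499 times the Shh WT level from the p and 0.288 times from the statistic, so levels down to these were not excluded.

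Nkx3-2 (chr5:41760785-41765020) encodes a homeobox repressor, known as Bapx1, that acts with Sox9 to promote cartilage. It was the 1 tested gene with a positive fold change, at 0.52 in log2 units in the authors' deposited table (Cuffdiff p = 0.101, q = 0.962). Its interval of −0.10 to 1.14 from the p includes 0, as does that of −0.85 to 1.89 from the statistic.

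Meox1 (chr11:101877510-101894354) and Meox2 (chr12:37108546-37179528), homeobox factors needed together for somite formation and patterning, both had negative fold changes. Meox2 was at −0.66 in log2 units in the authors' deposited table (Cuffdiff p = 0.0334, q = 0.610), with an interval of −1.28 to −0.05 from the p and of −1.95 to 0.62 from the statistic. Meox1 was at −0.18 in the authors' deposited table (Cuffdiff p = 0.439, q = 1.00). Its interval was −0.62 to 0.27 from the p and −1.13 to 0.78 from the statistic. The 2 intervals from the p overlap, and neither gene was called.

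**Figure D1:**
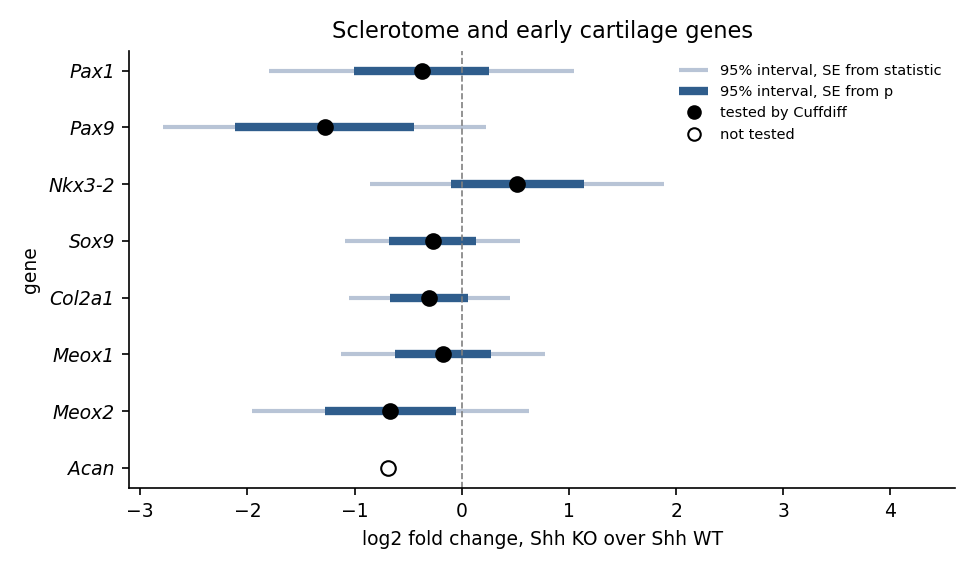
Log2 fold change (Shh KO over Shh WT) of each of the 8 genes as a point, with the 95% interval implied by the deposited p (dark bar) and by the deposited statistic (pale bar); Acan, not tested, has an open point and no interval. The dark bars of Pax9 and Meox2 end at −0.45 and −0.05, below 0, while every pale bar crosses 0.

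The tested cartilage genes, Sox9 and Col2a1, had the smallest errors of the 7, and neither was called. Sox9 (chr11:112782210-112787757), the master factor of chondrocytes, stood at −0.27 in log2 units in the authors' deposited table (Cuffdiff p = 0.191, q = 1.00), with an interval of −0.68 to 0.14. Col2a1 (chr15:97975602-98004724) encodes the main collagen of cartilage. Its log2 fold change was −0.30 in the authors' deposited table (Cuffdiff p = 0.104, q = 0.969), with an interval of −0.66 to 0.06. The standard error implied by the p was 0.19 for Col2a1 and 0.21 for Sox9 on the log2 scale, against 0.43 for Pax9. For Col2a1 and Sox9, a level under 0.631 or 0.626 times that in Shh WT lies outside these intervals, whereas with the statistic the limits are 0.482 and 0.471 times. Acan (chr7:79053483-79115099), the aggrecan core protein of cartilage matrix, was listed at −0.69 without a test in the authors' deposited table.

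**Figure D2:**
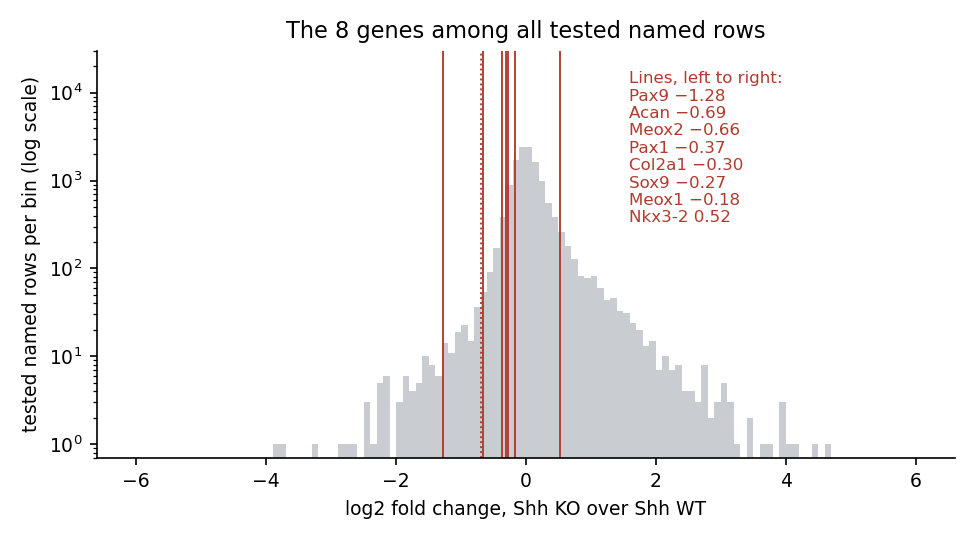
Number of tested named rows (log scale) in bins of log2 fold change (Shh KO over Shh WT), with a red line at the value of each of the 8 genes (dotted for Acan, which was not tested). Pax9 at −1.28 lies in the thin left tail, Sox9, Col2a1 and Pax1 lie between −0.27 and −0.37, and Nkx3-2 at 0.52 lies on the right.

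In order of log2 fold change, Pax9 was followed by Acan, Meox2, Pax1, Col2a1, Sox9, Meox1 and Nkx3-2. Neighbours among the tested genes in this order have overlapping intervals. Among all tested rows, Pax9 lay at percentile 0.506 of the fold changes, Meox2 at 1.53, Pax1 at 4.31, Col2a1 at 6.64, Sox9 at 8.22, Meox1 at 16.3 and Nkx3-2 at 91.4. The fold change of a row says nothing of its error, and a row at a low percentile need not be called.

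Other genes of the same programmes were counted from 11 lists, chosen with earlier results of these data known. Among other sclerotome and somite mesoderm genes, 1 of 12 tested rows was called lower and 1 higher in the authors' deposited table, with a median log2 fold change of 0.31. The 1 lower was Foxc1, a forkhead factor of paraxial and cardiac mesoderm, at 9.34 FPKM in Shh KO and 15.8 FPKM in Shh WT (log2 fold change −0.76, Cuffdiff q = 0.0268 in the authors' deposited table). Zic1, a zinc finger factor of dorsal neural tube and somite, was the 1 higher. It stood at 8.40 FPKM in Shh KO and 1.51 FPKM in Shh WT in the authors' deposited table (log2 fold change 2.48, Cuffdiff q = 0.00554). At an unadjusted Cuffdiff p under 0.05, 1 of the 12 rows stood below 0 and 3 above. The direction thus differed within the list.

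Other cartilage regulators gave 0 calls lower and 1 higher among 12 tested rows in the authors' deposited table, with a median log2 fold change of −0.00. At an unadjusted Cuffdiff p under 0.05, 1 of the 12 stood below 0 and 3 above. Barx1, a homeobox factor of pharyngeal arch and stomach mesenchyme, was the call, at 124 FPKM in Shh KO and 66.7 FPKM in Shh WT in the authors' deposited table (log2 fold change 0.90, Cuffdiff q = 0.0356). Ihh, the hedgehog ligand of growing cartilage and of gut epithelium, was not called, at 1.06 in log2 units in the authors' deposited table (Cuffdiff p = 0.00395, q = 0.153).

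Other cartilage matrix genes gave 0 calls in either direction by Cuffdiff among 9 tested rows in the authors' deposited table, with 2 at an unadjusted p under 0.05. Their median log2 fold change was −0.16. Those 2 were Col9a1, a collagen that decorates the Col2a1 fibril (log2 fold change −0.57, Cuffdiff q = 0.201 in the authors' deposited table), and Matn4, a matrilin (−0.997, q = 0.495). Of the 17 listed symbols found in the table, 8 were not tested. Tendon progenitor genes gave 0 Cuffdiff calls among 3 tested rows, with 1 at an unadjusted p under 0.05. That was Egr1, also an immediate early gene, with 0.67 on the log2 scale (Cuffdiff q = 0.468) in the authors' deposited table, and Mkx was at 0.30 (q = 1.00).

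**Figure D3:**
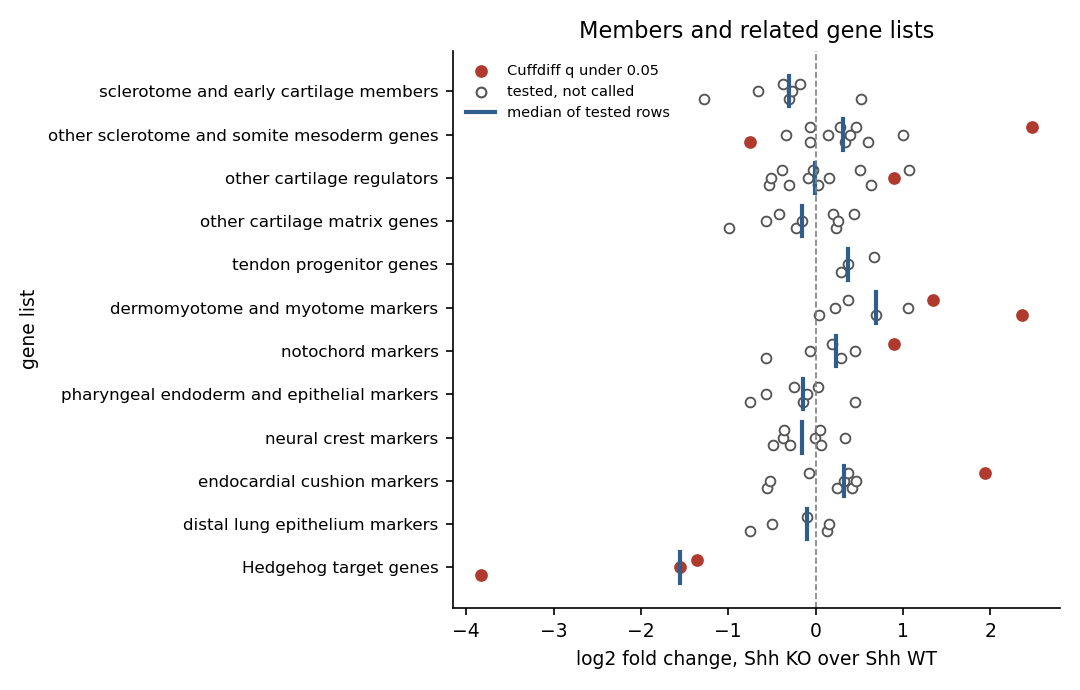
Log2 fold change (Shh KO over Shh WT) of each tested row in the 8-gene set and in 11 related lists; filled points passed a Cuffdiff q under 0.05, open points did not, and bars mark medians. The top row holds no filled point and has a median of −0.30, while the dermomyotome and myotome row has a median of 0.69 and the 3 Hedgehog target genes are all filled and below 0.

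The tested dermomyotome and myotome markers stood above 0, but a positive median was not particular to them. Positive medians were also found for other sclerotome and somite mesoderm genes (0.31), tendon progenitor genes (0.37), endocardial cushion markers (0.32) and notochord markers (0.24). The medians of the remaining related lists were below 0. Of 10 dermomyotome and myotome markers 7 were tested, and of these 2 were called higher and 0 lower in the authors' deposited table. Over all tested rows, 1.56% were called higher. Of the 7, 4 stood above 0 and 0 below at an unadjusted Cuffdiff p under 0.05, against 5.83% above among all tested rows. All 7 had a positive fold change, where 45.1% of all tested rows had a negative one, and the median was 0.69. En1, a homeobox factor of dermomyotome and of hindbrain, was at 2.62 FPKM in Shh KO and 0.509 FPKM in Shh WT in the authors' deposited table (log2 fold change 2.36, Cuffdiff q = 0.00985), and with 1 FPKM added to each value the log2 ratio is 1.26. Dmrt2, needed for the dermomyotome, was at 4.79 FPKM in Shh KO and 1.89 FPKM in Shh WT in the authors' deposited table (log2 fold change 1.34, Cuffdiff q = 0.0137). At a q under 0.10 there were 4 such calls in place of 2, with Pax3 (log2 fold change 1.05) and Alx4 (0.69) added in the authors' deposited table. Alx4 was the median row of this list. Which cells of this tissue express the listed markers was not tested, so the calls are not assigned to the somite. The 3 untested rows were Pax7, Myf5 and Myf6, listed at 2.37, −0.23 and −1.28 in log2 units in the authors' deposited table. No test of this list against the 8 genes was run.

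Markers of other cells that express members of the set were counted too, and their part in the members' values was not tested. Pharyngeal endoderm and epithelial markers had 0 calls with a direction among 7 tested rows that have a numeric fold change in the authors' deposited table, with 3 at an unadjusted Cuffdiff p under 0.05, and a median log2 fold change of −0.15. Their 2 smallest p belonged to Foxe1, a forkhead factor of pharyngeal endoderm, and Nkx2-1, a thyroid and lung factor. Foxe1 had a Cuffdiff q of 0.00554 in the authors' deposited table, but a spreadsheet error stands in place of its fold change and its direction was not read. Nkx2-1 was at −0.75 on the log2 scale (Cuffdiff q = 0.224) in the authors' deposited table.

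Notochord markers gave 1 call higher and 0 lower among 6 tested rows, and their median was 0.24 in log2 units in the authors' deposited table. At an unadjusted Cuffdiff p under 0.05, 1 of the 6 stood below 0 and 2 above. The call was Krt19, a keratin of many epithelia and mesothelium, at 41.9 FPKM in Shh KO and 22.6 FPKM in Shh WT in the authors' deposited table (Cuffdiff q = 0.0235). The defining notochord genes T and Noto were not tested. At a q under 0.01, Foxc1, Barx1, Dmrt2 and Krt19 lose their calls. Foxa2, of notochord and endoderm, was at −0.56 without a call (Cuffdiff q = 0.569) in the authors' deposited table.

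Neural crest markers gave 0 Cuffdiff calls among 8 tested rows of 7 genes in the authors' deposited table, with 0 at an unadjusted p under 0.05 and a median of −0.15. Their 2 smallest p belonged to Sox10, of crest and glia, at −0.37 (Cuffdiff q = 0.989) and Tfap2b, a factor of early crest, at −0.36 (q = 1.00) in the authors' deposited table. Endocardial cushion markers gave 1 call higher among 9 tested rows, with a median of 0.32 in that table. At an unadjusted Cuffdiff p under 0.05, 2 of the 9 stood below 0 and 2 above. Postn, the matrix protein periostin, was that call, at 14.9 FPKM in Shh KO and 3.88 FPKM in Shh WT in the authors' deposited table (log2 fold change 1.94, Cuffdiff q = 0.00554). Has2, a hyaluronan synthase, was at −0.52 (Cuffdiff q = 0.444) there. Distal lung epithelium markers gave 0 Cuffdiff calls among 5 tested rows in the authors' deposited table, 2 at an unadjusted p under 0.05, Nkx2-1 and Etv5 (−0.50, q = 0.489), and a median of −0.10.

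The labels and the pathway were checked against the same tables. The Shh row stood at 5.44 FPKM in Shh KO and 15.7 FPKM in Shh WT in the authors' deposited table (log2 fold change −1.53, Cuffdiff q = 0.00554). That row ends at 28719209 on chromosome 5, beyond the GENCODE end of Shh at 28467256. The 3 listed Hedgehog target genes, Hhip, Ptch1 and Gli1, were called lower at the same q, with log2 fold changes from −3.83 to −1.35 in the authors' deposited table. Hhip has a log2 ratio of −1.72 once 1 FPKM is added to each pooled value. Ptch1, the receptor, was at 11.6 FPKM in Shh KO and 33.8 FPKM in Shh WT there. The pSHF genes Osr1 (33.5 FPKM in Shh KO, 71.4 FPKM in Shh WT) and Foxf1 (42.5 FPKM in Shh KO, 83.5 FPKM in Shh WT) had transcripts in both genotypes in the authors' deposited table. Both were called lower in Shh KO, at log2 fold changes of −1.09 and −0.98 (Cuffdiff q = 0.00554 each) in the authors' deposited table. Isl1 (−0.39), Tbx5 (−0.44) and Wnt2 (0.04), other genes of the cardiac progenitor field, were tested and not called in that table (log2 fold changes in parentheses).

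**Figure D4:**
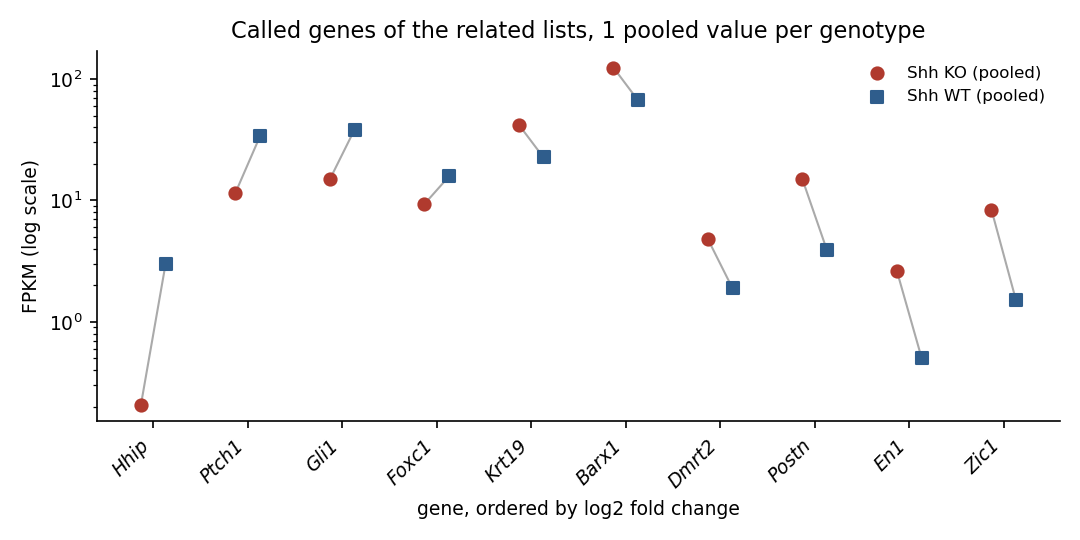
Pooled FPKM (log scale) of the called genes of the related lists that have a pooled value (Foxe1 has none) in Shh KO (circles, left of each pair) and Shh WT (squares), 1 value per genotype with no error. The genes from Hhip to Foxc1 are lower in Shh KO, and those from Krt19 to Zic1 are higher; none of the 8 sclerotome and cartilage genes appears, since none was called.

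The tested rows nearest to each gene within 500 kb were compared next, as deposited. At Pax9, all 4 tested named rows within that distance had negative fold changes, and 0 were called. Slc25a21, a mitochondrial carrier gene 1.40 kb beyond the Pax9 row, was at −0.32 and Nkx2-1, 159 kb before it, at −0.75 in log2 units in the authors' deposited table. E030019B13Rik, next to Nkx2-1, was at −1.32 (Cuffdiff p = 0.0021, q = 0.0949) in the authors' deposited table and was singled out after its value was seen. These rows have the sign of Pax9, where 45.1% of all tested rows had a negative fold change. This was not particular to Pax9, since the 2 rows near Pax1 and the 1 row near Meox2 were negative too.

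At Acan, the adjacent Hapln3, a link protein gene 1.93 kb beyond it, was at −1.07 in log2 units in the authors' deposited table (Cuffdiff p = 0.00115, q = 0.0637), while Aen, 142 kb before it, was at −0.27. Of the 10 tested rows near Acan, 5 had negative fold changes and 0 were called. Near Pax1 and Meox2, Xrn2 (−0.33) and Ispd (−0.24) were the nearest tested rows in the authors' deposited table, each on 1 side only. Near Nkx3-2 they were Rab28 (0.15) and Bod1l (−0.29), and near Sox9 the noncoding 2610035D17Rik (0.04), in the authors' deposited table. Near Col2a1, Tmem106c was at 0.10, Pfkm at 0.12 and Senp1 at −0.16, the last 2 in 1 shared interval, in the authors' deposited table. Near Meox1, Etv4 was at 0.16 and Sost at 0.31 in log2 units in the authors' deposited table. None of these nearest rows was called.

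**Figure D5:**
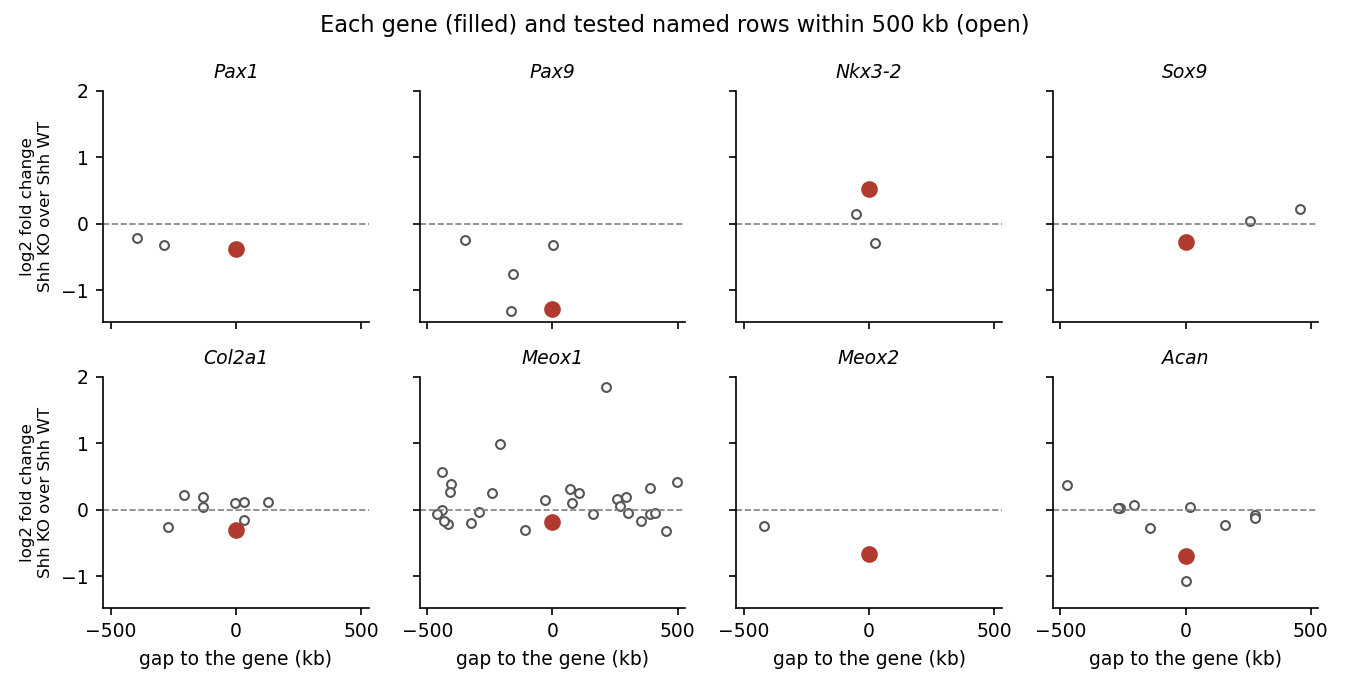
Log2 fold change (Shh KO over Shh WT) of each of the 8 genes (filled point at 0 kb) and of every tested named row within 500 kb (open points) against the gap between the intervals in kb. All 4 rows near Pax9 lie below 0, as do the rows near Pax1 and Meox2. The row beside Acan lies at −1.07, and none of the open points was called.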

How the data were processed

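PolyA RNA-seq of pSHF tissue was compared between 5 Shh KO and 4 Shh WT libraries. TopHat2 2.0.10, Cuffdiff 2.1.1 and the build mm9 are named in the submitters' processing notes; Cuffdiff options are not given in the sources used here. Per the file headers, the full deposited table holds per row a log2 fold change, Cuffdiff's statistic (a score), a p-value and a q-value. The shorter deposited table gives 1 pooled FPKM per genotype, their ratio and its log2. Depth per library is unknown, so its effect on the precision of low genes could not be judged, and no replicate error could be computed.

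A p under 1 was taken as tested (16944 rows), and adjusting them by Benjamini-Hochberg gave each deposited q back within 0.0001. The deposited fold change divides Shh KO by Shh WT, since it matched the log2 ratio of the 253 pooled FPKM pairs within 1.07e-05. Row positions overlapped the GRCm38 gene for 99.3% of 20921 symbols in GENCODE M21, so they are given as mm10, with 1 added to each start. Standard errors were taken as the absolute log2 fold change over the normal quantile of the p, or over the statistic. The calculation from the p was run on simulated data whose p came from that same normal formula. That run checks the arithmetic only, and cannot show that the intervals from the p hold for Cuffdiff rows. The quantile exceeded the statistic by a median factor of 2.10. Windows of 50 bases were compared by exact match over GENCODE M21 transcripts, both strands, with Python 3.11.15.

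Genes with a Cuffdiff q under 0.05 were called. Alternatives were a q under 0.01 or 0.10, adjustment over named rows and leaving out overlapping rows. Named were the 8 members, Shh, list genes with a q under 0.05, the 2 smallest p of each list and the nearest tested row on each side within 500 kb. Members and lists were chosen with earlier results of these data known. Pax3, Alx4, Myog, Lbx1, Myod1, E030019B13Rik and the untested dermomyotome and myotome genes were named after their values were seen. Osr1, Foxf1, Isl1, Tbx5 and Wnt2 were named as a check of the tissue. Some genes and sequences are not reported here, and the lists are counted without such genes.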

Additional observations from a re-analysis of the deposited data

How the results depend on the processing

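With Cuffdiff, 0 members were called lower or higher at a q under 0.01 or 0.10, with adjustment over named rows, or without overlapping rows. Adjusted over named rows only, Pax9 had q = 0.0933. The median log2 fold change of the members was −0.34 with Acan included and −0.33 when centred on the median of all tested rows, an alternative chosen after seeing the data, as were the intervals from the statistic and the pseudocounts below. At a q under 0.01, named genes called higher numbered 132 instead of 203. There, other sclerotome and somite mesoderm genes called lower numbered 0 instead of 1, other cartilage regulators and notochord markers called higher numbered 0 instead of 1 each, and dermomyotome and myotome markers called higher numbered 1 instead of 2. At a q under 0.10, other sclerotome and somite mesoderm genes called higher numbered 2 and dermomyotome and myotome markers called higher numbered 4. With a pseudocount of 1 FPKM, the log2 ratio of the pooled values was 1.26 for En1, 1.91 for Zic1 and −1.72 for Hhip.

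No paired analysis was possible because the tables hold 1 pooled value per genotype, and for the same reason leaving out libraries was not run. The planned pseudocounts on members were not run, since no member has a pooled FPKM here.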
